A study of Homo sapiens with 9 samples.

Results

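The E2F transcription factors and their DP dimerization partners were followed in A2780 cells, an established line of human ovarian carcinoma, that were left untreated or exposed for 24 h to DIG-MSK, either at 8 nM or at 80 nM. This drug derives from mithramycin A, an antibiotic, and such compounds bind C/G-rich stretches of DNA in the minor groove. The 10 genes are E2F1 to E2F8, TFDP1 and TFDP2, and they were chosen by name: a probe belonged to them if the array design tied it to a RefSeq transcript of one of these genes. They were carried by 15 probes, out of 35010 genes and other transcripts and 42405 gene probes on the array, and all 15 probes were well above background on all 9 arrays. Each group had 3 arrays, each from a culture of its own per the study's methods, and nothing but the drug distinguished the groups in the labels.

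E2F proteins bind DNA as dimers with a DP protein and control the genes of DNA replication and of the cell cycle. In resting or early G1 cells they are held by the pocket proteins RB1, RBL1 and RBL2. Cyclin-dependent kinases phosphorylate the pocket proteins, which frees the activator E2Fs and opens the way into S phase. E2F1, E2F2 and E2F3 are the classical activators, E2F4 and E2F5 act mostly as repressors together with pocket proteins, E2F6 works with Polycomb proteins without binding pocket proteins, and E2F7 and E2F8 are atypical repressors that bind DNA without a DP partner.

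A level is the log2 of the background-corrected intensity of a probe minus the 75th percentile of its array, so levels of one probe can be compared between arrays but not with another probe. The comparisons come from 1 limma model of the 9 arrays, and "rose" or "fell" refers to a Benjamini-Hochberg adjusted p under 0.05 over the 21832 genes tested. Between 24814 and 27151 probes were well above background per array, with the fewest on the second 8 nM array, and arrays of a group correlated between 0.9891 and 0.9957 across genes. The untreated and 8 nM arrays shared slide 1 and its scan, while the 80 nM arrays lay on slide 2, so an effect of 80 nM and a difference between slides cannot be told apart. Of the epithelial and ovarian carcinoma markers, 4 of 10 (KRT8, KRT18, KRT19 and EPCAM) were well above background on all arrays, and 4 (CDH1, WT1, MUC16 and MSLN) on none. Among markers of other cells, the leukocyte genes PTPRC and CD68 and the endothelial gene CDH5 were above background on all arrays, whereas PECAM1 and HBB were above it on none. In RNA from whole cultures, fewer cells of a kind and less RNA per cell cannot be told apart.

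The regions before the start sites of E2F1, E2F2, TFDP1 and E2F3 are shown because all 4 hold a match to an E2F site, that is, to the kind of element these factors bind themselves. Each run is the 250 bases before the RefSeq start site, 5′ to 3′ on the strand of the gene (RefSeq, GRCh38.p14). The regions are chr20:33686386-33686635 on the minus strand for E2F1, chr1:23531234-23531483 on the minus strand for E2F2, chr6:20401629-20401878 on the plus strand for E2F3 and chr13:113584503-113584752 on the plus strand for TFDP1. Capitals mark an E2F site (TTTCCCGC, TTTGGCGC, TTTCGCGC or TTTGCCGC), a GC box (GGGCGG) or a CCAAT box (CCAAT), each on either strand.
E2F1: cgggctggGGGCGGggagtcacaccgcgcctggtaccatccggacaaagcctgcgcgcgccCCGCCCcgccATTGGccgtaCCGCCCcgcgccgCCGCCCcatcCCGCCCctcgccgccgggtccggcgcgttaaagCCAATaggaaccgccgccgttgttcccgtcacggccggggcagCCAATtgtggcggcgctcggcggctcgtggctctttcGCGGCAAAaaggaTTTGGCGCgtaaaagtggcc
E2F2: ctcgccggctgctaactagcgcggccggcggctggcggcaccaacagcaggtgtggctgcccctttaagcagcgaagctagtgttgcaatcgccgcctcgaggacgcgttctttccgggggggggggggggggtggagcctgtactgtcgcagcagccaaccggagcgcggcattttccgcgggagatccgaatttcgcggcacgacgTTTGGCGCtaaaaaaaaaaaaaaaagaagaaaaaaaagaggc
E2F3: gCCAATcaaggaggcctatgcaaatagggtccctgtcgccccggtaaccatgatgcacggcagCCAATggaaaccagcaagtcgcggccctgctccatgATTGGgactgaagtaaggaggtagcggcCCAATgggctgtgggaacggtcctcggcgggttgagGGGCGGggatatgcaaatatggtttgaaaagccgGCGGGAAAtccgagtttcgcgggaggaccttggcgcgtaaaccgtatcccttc
TFDP1: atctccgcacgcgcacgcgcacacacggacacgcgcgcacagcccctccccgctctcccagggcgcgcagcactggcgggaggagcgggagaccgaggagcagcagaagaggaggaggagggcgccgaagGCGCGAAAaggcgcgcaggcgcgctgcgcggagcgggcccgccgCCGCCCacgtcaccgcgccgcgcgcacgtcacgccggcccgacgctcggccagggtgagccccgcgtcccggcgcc

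Positions are counted in bases from the start site, negative before it. E2F1 has 2 E2F sites, with first bases at -33 and -20, 5 GC boxes in the printed stretch and another just inside the transcript. The E2F site of E2F2 begins at -42, with no GC box or CCAAT box in the window. In E2F3 the site begins at -53 from the first of 2 listed start sites, beside 4 CCAAT boxes, and in TFDP1 it begins at -120. Windows of 300 bases (250 before and 50 after the start) were given for 8 of the 10 genes, 11 windows in all. An E2F site was held by 4 of the 11, against 3.31% of all 35116 windows and 4.1% of those of protein-coding genes. A GC box, the element bound by Sp1, was found in 8 of the 11 windows, against 45% of all windows and 56.3% of those of protein-coding genes. C and G made up 72.4% of the printed bases of E2F1, 60.8% of E2F2, 58.8% of E2F3 and 78.4% of TFDP1, where the median of all windows was 58%. These matches describe letters and say nothing about binding in these cells.

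**Figure D1:**
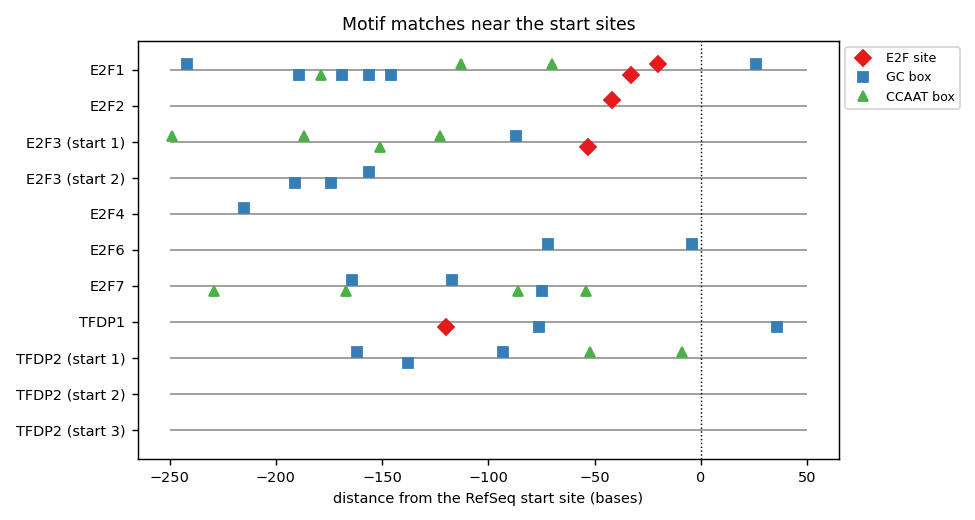
Positions of motif matches in the windows of the 8 genes with a listed start site, in bases from the RefSeq start site (0), with 1 grey line per start site; diamonds are E2F sites, squares GC boxes and triangles CCAAT boxes, drawn above the line for the strand of the gene and under it for the other strand. E2F sites occur in 4 of the 11 windows (E2F1, E2F2, the first start of E2F3 and TFDP1), all of them before the start site.

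At 8 nM DIG-MSK, 5 of the 10 genes passed the test, against 13.6% of all genes tested. E2F1, E2F2, E2F8 and TFDP1 fell (5.71% of all genes fell), E2F7 rose (7.88% of all genes rose), and E2F3, E2F4, E2F5, E2F6 and TFDP2 did not pass. At 80 nM, 7 of the 10 passed, against 59% of all genes. E2F1, E2F2, E2F3, E2F8 and TFDP2 fell (25.4% of all genes fell), and E2F4 and TFDP1 rose (33.6% of all genes rose). The count of members at 80 nM is thus near the background. The median log2 change of the 10 genes was -0.10 at 8 nM and -0.26 at 80 nM, beside -0.06 and 0.08 over all genes. By the study's own rule, which asks for an unadjusted p under 0.05 together with a change to 1.5-fold or more, or to 0.67-fold or less, 0 members were higher and 2 were lower at 8 nM. Of all genes, 7.1% met it there, 4.25% as higher and 2.84% as lower. At 80 nM 1 member was higher and 2 were lower by this rule, where 35.1% of all genes met it, 18.9% as higher and 16.2% as lower. Both comparisons used the same 3 untreated arrays. With the untreated and 8 nM arrays alone in the fit, all from slide 1, 3 members passed at 8 nM (E2F1, E2F8 and TFDP1), and E2F2 (adjusted p = 0.052) and E2F7 (adjusted p = 0.055) did not.

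**Figure D2:**
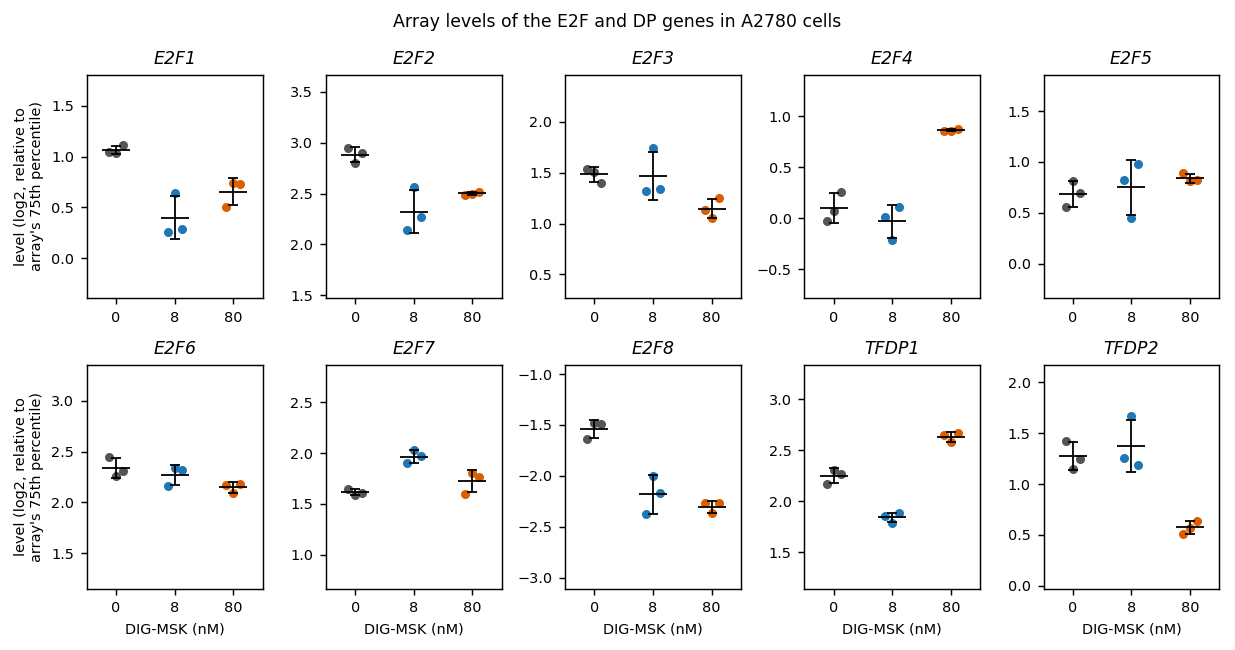
Level of each E2F and DP gene on every array (log2, relative to the 75th percentile of the array) at 0, 8 and 80 nM DIG-MSK; points are arrays, horizontal lines means and bars 1 SD (n = 3), and each panel spans the same number of log2 units around its own middle. E2F1, E2F2 and E2F8 lie under the untreated arrays at both concentrations, TFDP1 lies under them at 8 nM and over them at 80 nM, and at 80 nM E2F4 lies over, and TFDP2 under, all other arrays.

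Among the activators, E2F1, which drives S phase genes and can also promote apoptosis, had the largest decrease at 8 nM among the 10 genes, each taken by its brightest probe. Its level was 1.05, 1.04 and 1.11 on the untreated arrays, 0.26, 0.64 and 0.29 at 8 nM, and 0.50, 0.74 and 0.73 at 80 nM. All 6 treated arrays lay under all 3 untreated arrays, and the arrays of the 2 concentrations overlapped. The log2 change was -0.67 at 8 nM (SE 0.12, limma adjusted p = 0.0083), or 1.59-fold lower, and -0.41 at 80 nM (SE 0.12, adjusted p = 0.015), or 1.33-fold lower. The E2F1 probe (NM_005225) was printed 10 times per array, and the SD between its spots on an array was between 0.04 and 0.14. Without the first 80 nM array, the change at 80 nM was -0.33 and did not pass (adjusted p = 0.055).

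E2F2 (NM_004091), another activator, gave 2.95, 2.80 and 2.90 on the untreated arrays, 2.14, 2.56 and 2.27 at 8 nM, and 2.49, 2.50 and 2.52 at 80 nM. It followed the same order of groups as E2F1, with no treated array reaching the untreated ones. The log2 change was -0.56 at 8 nM (SE 0.11, limma adjusted p = 0.013), and -0.38 at 80 nM (SE 0.11, adjusted p = 0.015). The levels of E2F1 and E2F2 correlated at r = 0.96 over the 9 arrays, which share 3 groups and 2 slides. Of the other genes printed for an E2F site, E2F3 correlated with them at 0.31 and 0.40 and TFDP1 at 0.34 and 0.26, and E2F3 with TFDP1 at -0.67.

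E2F3 (NM_001949), the third activator, gave 1.54, 1.51 and 1.40 on the untreated arrays, 1.32, 1.74 and 1.34 at 8 nM and 1.13, 1.06 and 1.25 at 80 nM. The 8 nM arrays surrounded the untreated ones, and the 80 nM arrays were lowest. At 8 nM the log2 change was -0.02, with a 95% confidence interval from -0.30 to 0.26, and at 80 nM it fell by 0.34 on the log2 scale (SE 0.12, limma adjusted p = 0.039). The call at 80 nM was kept in 4 of the 9 fits that each left out 1 array, and was lost without any 1 of the untreated arrays or without the first or the second 80 nM array. Another, dimmer probe of the same transcript changed by -0.22 and -0.31 at 8 and 80 nM (SE 0.23 for both) and passed in neither comparison.

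E2F4 and E2F5 are the members that act with RBL1 and RBL2 in repression. E2F4 (NM_001950) gave -0.03, 0.07 and 0.26 on the untreated arrays, 0.01, -0.21 and 0.11 at 8 nM, and 0.86, 0.86 and 0.88 at 80 nM. The untreated and 8 nM arrays overlapped and all 80 nM arrays stood above them. E2F4 rose at 80 nM by 0.77 (SE 0.10, limma adjusted p = 0.00037), or 1.71-fold, the largest increase among the 10 genes, and had a log2 change of -0.13 at 8 nM (95% confidence interval from -0.37 to 0.11). E2F5 (NM_001951) gave 0.56, 0.81 and 0.69 on the untreated arrays, 0.82, 0.45 and 0.98 at 8 nM and 0.89, 0.81 and 0.82 at 80 nM. These groups overlapped, and the changes of 0.07 and 0.15 had 95% confidence intervals from -0.24 to 0.37 and from -0.15 to 0.46.

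E2F6, which represses germline genes as part of a Polycomb complex, was measured by 3 probes of the same transcript (NM_198256) that differed in their changes. The brightest, A_23_P170774, gave 2.45, 2.26 and 2.31 on the untreated arrays, 2.16, 2.34 and 2.32 at 8 nM and 2.17, 2.09 and 2.18 at 80 nM. The 80 nM arrays were all under the untreated ones, but the log2 change of -0.19 did not pass (SE 0.08, limma adjusted p = 0.073), nor did -0.07 at 8 nM.
Probe A_33_P3416301 gave -0.53, -0.55 and -0.30 untreated, -1.02, -1.56 and -1.05 at 8 nM and -1.72, -1.59 and -1.81 at 80 nM. Its 3 groups were fully separated, in the order untreated, 8 nM and 80 nM. It fell by 0.75 on the log2 scale at 8 nM (SE 0.15, adjusted p = 0.016 over all probes kept) and by 1.25 at 80 nM (SE 0.15, adjusted p = 0.00019), or 2.38-fold lower. The third probe, A_32_P12610, changed by -0.15 and 0.11 and passed in neither.

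The difference between probes was itself tested with limma, on the within-array difference of 4625 probe pairs, an analysis added after the data had been seen. The 80 nM change of A_33_P3416301 was lower than that of A_23_P170774 by 1.06, a difference of -1.06 (SE 0.19, adjusted p = 0.0028), where 44.2% of all pairs passed. At 8 nM the difference of -0.68 did not pass (adjusted p = 0.14, 0.67% of pairs passed). The place of these probes along the transcript is not given in the sources used here, so the values cannot be tied to forms of E2F6.

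**Figure D3:**
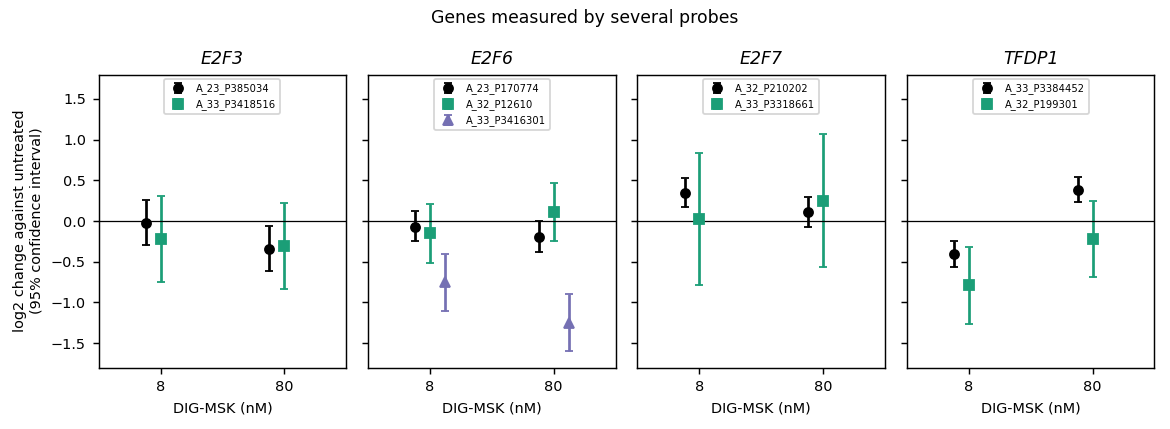
Log2 change against untreated at 8 and 80 nM DIG-MSK for every probe of the 4 genes with several probes, with 95% confidence intervals from limma. For E2F6, probe A_33_P3416301 lies at -0.75 and -1.25 while the other probes lie between -0.19 and 0.11, and for TFDP1 the probes stand on opposite sides of 0 at 80 nM (0.38 and -0.22).

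The atypical repressors moved in opposite directions at 8 nM. E2F7 (NM_203394), which restrains E2F1 and S phase genes, gave 1.65, 1.59 and 1.61 on the untreated arrays, 1.90, 2.03 and 1.97 at 8 nM and 1.6, 1.80 and 1.77 at 80 nM. The 8 nM arrays were above all others, and the 80 nM arrays overlapped the untreated ones. E2F7 rose at 8 nM by 0.35 (SE 0.08, limma adjusted p = 0.022), or 1.27-fold, a call lost without any 1 of the untreated arrays or the third 8 nM array, and its change at 80 nM was 0.11 (95% confidence interval from -0.07 to 0.28). Its other probe was spread widely at 8 nM, with -1.42, -2.84 and -1.34, and changed by 0.03 (SE 0.36).

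E2F8 (NM_024680), the partner of E2F7 in repression, gave -1.64, -1.48 and -1.49 on the untreated arrays, -2.38, -2.00 and -2.17 at 8 nM and -2.27, -2.37 and -2.27 at 80 nM. All treated arrays were under the untreated ones and the concentrations overlapped. E2F8 fell by 0.64 on the log2 scale at 8 nM (SE 0.10, limma adjusted p = 0.0059), or 1.56-fold lower, and by 0.76 at 80 nM (SE 0.10, adjusted p = 0.00035), or 1.70-fold lower. By the brightest probe of each gene, it was the only member whose decrease passed 1.5-fold at both concentrations, and it passed in all 9 fits that each left out 1 array at both.

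The DP partners went opposite ways at 80 nM. TFDP1 (NM_007111), which encodes the main partner of the E2F proteins, gave 2.17, 2.31 and 2.27 on the untreated arrays, 1.85, 1.79 and 1.88 at 8 nM and 2.65, 2.58 and 2.67 at 80 nM. Its 3 groups did not overlap, with 8 nM lowest and 80 nM highest. TFDP1 fell by 0.41 on the log2 scale at 8 nM (SE 0.07, limma adjusted p = 0.0072) and rose by 0.38 at 80 nM (SE 0.07, adjusted p = 0.0015), or 1.30-fold.
The dimmer TFDP1 probe, A_32_P199301, gave 1.14, 0.68 and 1.06 untreated, 0.47, -0.29 and 0.34 at 8 nM and 0.81, 0.59 and 0.82 at 80 nM. It also fell at 8 nM, by 0.79 (SE 0.21, adjusted p = 0.040), but its 80 nM arrays overlapped the untreated ones and its change of -0.22 did not pass (adjusted p = 0.38). The difference between the TFDP1 probes at 80 nM, -0.60 (SE 0.21), passed (adjusted p = 0.045), so the rise of TFDP1 at 80 nM rests on 1 of its 2 probes, and with the mean of the probes it was 0.08 and did not pass.

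TFDP2 (NM_001178138), the other DP gene, gave 1.42, 1.15 and 1.25 on the untreated arrays, 1.26, 1.67 and 1.19 at 8 nM and 0.51, 0.57 and 0.64 at 80 nM. The untreated and 8 nM arrays overlapped, and the 80 nM arrays were well under both. TFDP2 fell at 80 nM by 0.70 on the log2 scale (SE 0.13, limma adjusted p = 0.0021), or 1.63-fold lower, and had a change of 0.10 at 8 nM (95% confidence interval from -0.21 to 0.40). Across the 9 arrays TFDP2 ran against E2F4 (r = -0.97) and with E2F3 (r = 0.91), and TFDP1 ran with E2F4 (r = 0.90). These correlations describe 3 groups of arrays on 2 slides.

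**Figure D4:**
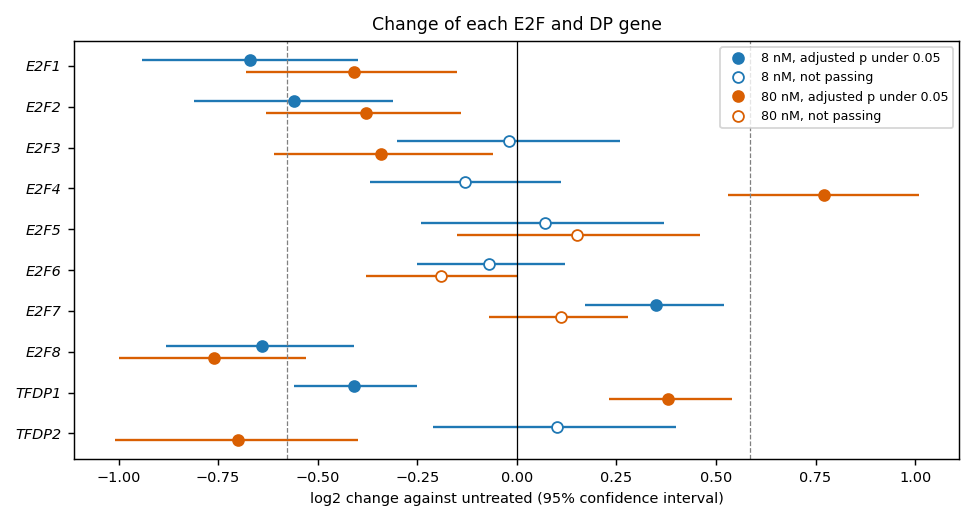
Log2 change of each E2F and DP gene against untreated at 8 nM (blue) and 80 nM (orange) with 95% confidence intervals from limma; filled points passed an adjusted p under 0.05, and dashed lines mark the limits of 1.5-fold up and 0.67-fold. At 80 nM E2F4 stands highest (0.77) and E2F8 (-0.76) and TFDP2 (-0.70) lowest, and at 8 nM E2F1 (-0.67), E2F8 (-0.64) and E2F2 (-0.56) are lowest.

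The scale of the arrays bore on these calls. When arrays were scaled to 10 spike-in control probes, for RNA added from outside the cells, the median change of all genes moved by 0.08 at 8 nM and by -0.28 at 80 nM. At 8 nM none of the 10 members then passed limma's adjusted test, 3 had an unadjusted p under 0.05, and 1.71% of all genes passed. The changes were close to those above, for example -0.59 for E2F1 and -0.57 for E2F8. At 80 nM the 5 decreases passed under this scaling, with -0.70 for E2F1 and -1.05 for E2F8, while E2F4 (0.49, adjusted p = 0.18) and TFDP1 (0.10, adjusted p = 0.79) did not. Set against the median of all genes, the 80 nM change was 0.69 for E2F4 and 0.30 for TFDP1. Both scalings shift all genes of an array alike, so these values are the same under either by construction. Their sameness is no test of the rises.

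The concentrations were also compared directly, to ask whether a response differed between 8 and 80 nM. In this test, 5 of the 10 genes passed, 2 higher and 3 lower at 80 nM, against 57.7% of all genes (34.9% higher and 22.8% lower), and the median difference was -0.02, beside 0.12 over all genes. TFDP1 was higher at 80 than at 8 nM by 0.79 (SE 0.07, limma adjusted p = 3.1e-05) and E2F4 by 0.90 (SE 0.10, adjusted p = 0.00017). TFDP2 (-0.80, adjusted p = 0.0011), E2F3 (-0.32, adjusted p = 0.049) and E2F7 (-0.24, adjusted p = 0.028) were lower at 80 nM. The study's fold rule was met by TFDP1, E2F4 and TFDP2, 2 higher and 1 lower, where 33.7% of all genes met it (19.7% higher and 14.1% lower).
For E2F1, E2F2 and E2F8 the differences did not pass, at 0.26 (95% confidence interval from -0.01 to 0.52), 0.18 (from -0.07 to 0.42) and -0.12 (from -0.36 to 0.12). The second 8 nM array had the fewest probes above background. By their brightest probes, all 10 genes were at an extreme of their 8 nM levels on this second 8 nM array. The same count was not taken over all genes, so it is not read as a trait of the members. It had the highest 8 nM level of E2F1, E2F2, E2F3, E2F6, E2F7, E2F8 and TFDP2. It had the lowest of E2F4, E2F5 and TFDP1. Without it, E2F1 and E2F2 were higher at 80 than at 8 nM by 0.38 (adjusted p = 0.0077) and 0.29 (adjusted p = 0.010), while E2F3 (-0.18) and E2F7 (-0.21) did not pass. E2F3 passed this comparison in 2 and E2F7 in 6 of the 9 fits that each left out 1 array. With spike-in scaling, TFDP2 (-1.16) and E2F3 (-0.68) passed, and E2F4 (0.54), TFDP1 (0.43) and E2F7 (-0.60) did not.

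By a rule of likeness, the Pearson correlation over the 9 arrays with 13997 other genes that have a symbol, the genes closest to E2F1 were RAB5IF (r = 0.983), ATAD3A (0.982), UBE2S (0.982), C15orf39 (0.976) and ATAD3B (0.975). The genes closest to TFDP1 were TUBA1A (0.990), PEMT (0.990), ACSL3 (0.989), ARHGDIA (0.989) and HAUS1 (0.987). The points share their 3 groups and their slides.

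The pocket proteins, which bind E2Fs and silence them, were tested as 3 genes. RBL1 fell at 8 nM (-0.52, limma adjusted p = 0.0014), RBL2 rose (0.34, adjusted p = 0.019), and RB1 did not pass (0.14, adjusted p = 0.34). At 80 nM RB1 (0.42, adjusted p = 0.0045) and RBL2 (0.38, adjusted p = 0.0024) rose, neither of which passed with spike-in scaling, and RBL1 (-0.10) did not pass. By its brightest probe, RBL1 was -0.96, -0.96 and -0.99 untreated, -1.53, -1.47 and -1.48 at 8 nM and -1.12, -1.04 and -1.06 at 80 nM, so its 3 groups were separated. Another RBL1 probe changed by -0.61 at 8 nM and by 0.21 at 80 nM, so the order of 80 nM and untreated differed between probes.

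MuvB is the core that joins E2F4 and RBL2 in the DREAM repressor of resting cells and MYBL2 and FOXM1 in activating mitotic genes. The list of 8 genes held the MuvB subunits together with MYBL2, FOXM1 and DYRK1A. Of the 8, 1 passed at 8 nM, against 13.6% of all genes, and it fell. That was MYBL2, which was 1.39, 1.42 and 1.5 untreated, 0.58, 0.72 and 0.63 at 8 nM and 1.69, 1.58 and 1.74 at 80 nM. All 8 nM arrays were under, and all 80 nM arrays over, the untreated ones. MYBL2 fell by 0.79 on the log2 scale with the lower dose (SE 0.07, limma adjusted p = 0.00048). It rose by 0.23 with the higher one (adjusted p = 0.023), a change that became -0.05 with spike-in scaling.
FOXM1 did not pass, with -0.30 (adjusted p = 0.060) at 8 nM and 0.12 (adjusted p = 0.27) at 80 nM. At 80 nM LIN54, a DNA-binding subunit, rose by 0.30 (not passing with spike-in scaling) and DYRK1A, the kinase that promotes DREAM assembly, fell by 0.39 on the log2 scale by its brightest probe (its other probes gave -0.65 and -1.74), while LIN9 (0.15, and -0.47 by another probe), LIN37 (0.13), LIN52 (-0.29) and RBBP4 (0.05) did not pass. By their brightest probes none of these 6 genes passed at 8 nM, where the log2 changes lay between -0.26 and 0.03. Other probes gave -0.40 and -0.69 for DYRK1A, -0.32 for LIN9 and 0.19, -0.17 and 0.18 for RBBP4 there. At 80 nM the other RBBP4 probes gave 0.22, 0.40 and 0.23.

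Of 14 tested cyclins, kinases and inhibitors that act on RB, 1 rose and 1 fell at 8 nM, where 13.6% of all genes passed. At 80 nM 7 rose and 5 fell, where 59% of all genes passed. CDKN1A, the p21 inhibitor of cyclin-dependent kinases, was -2.37, -2.32 and -2.21 untreated, -0.32, -0.84 and -0.30 at 8 nM and -0.40, -0.40 and -0.38 at 80 nM. Every treated array was far above the untreated ones, with log2 changes of 1.82 and 1.91 (SE 0.14 for both, limma adjusted p = 0.00021 and 1.2e-05). CDKN2C, another inhibitor, fell by 0.27 at 8 nM, a call lost in the fit blocked on replicate number (adjusted p = 0.051), and rose by 1.06 at 80 nM. At 80 nM CDKN2A, which encodes the INK4A and ARF proteins, fell by 1.68 and the D-type cyclin gene CCND3 rose by 1.58. CDK2, the kinase of cyclin E, was higher at 80 than at 8 nM by 1.43. CDK6, outside the rule for named genes and picked after its values were seen, was not well above background on any 80 nM array and was at least 9.59-fold lower there than in untreated cells.

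The 64 listed G1/S genes, which encode replication, nucleotide synthesis and repair proteins and are textbook E2F targets, were all tested. At 8 nM 32 of them fell and 1 rose, where 5.71% of all genes fell and 7.88% rose. The median log2 change was -0.35, beside -0.06 over all genes. CLSPN, a checkpoint mediator, was -0.45, -0.90 and -0.74 untreated, -1.64, -1.66 and -1.58 at 8 nM and -2.38, -2.28 and -2.54 at 80 nM. It fell by 0.93 on the log2 scale (SE 0.12, limma adjusted p = 0.0022) at 8 nM and by 1.70 at 80 nM (adjusted p = 8.7e-06), with separate groups throughout. UHRF1, which recruits DNA methyltransferase to replicated DNA, fell by 0.74 at 8 nM (-1.17 by another probe) and DBF4, the activator of the CDC7 kinase, by 0.72 (-0.14 by another probe).
At 80 nM 15 of these genes fell and 14 rose, with a median of -0.12, beside 0.08 over all genes. The share that passed, 45.3%, was under the 59% of all genes (25.4% fell and 33.6% rose). CHAF1A, a subunit of the chromatin assembly factor, fell by 1.12, and its other probe gave -0.60. Between the concentrations 30 were higher and 5 lower at 80 nM (median 0.20, beside 0.12), where 34.9% of all genes were higher and 22.8% lower. The higher ones included RRM2, a ribonucleotide reductase subunit (1.39), CCNE2, a cyclin E (1.26), and ORC1, of the origin recognition complex (0.95). DBF4 was measured by another probe that changed by 0.96 at 80 nM where the one used changed by -1.17. With spike-in scaling 0 of the 64 passed at 8 nM, 1 rose and 15 fell at 80 nM, and 2 were higher and 7 lower at 80 than at 8 nM. With the untreated and 8 nM arrays alone in the fit, 12 of the 64 fell at 8 nM, and 19 fell with no filter on dim probes. The number was 23, 19 or 16 without the first, the second or the third untreated array. It was 21 without either the first or the third 8 nM array and 47 without the second. It was 25 with the replicate number as a block. By the study's fold rule 4 of the 64 were lower at 8 nM, where 2.84% of all genes were. Of the listed windows of these genes, 37.2% held an E2F site, against 3.31% of all windows and 4.1% of those of protein-coding genes.

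Of 29 tested G2/M genes, which act in mitosis and are regulated through MuvB, 16 fell and 0 rose at 8 nM (median -0.27). Of all genes, 5.71% fell and 7.88% rose there. At 80 nM 7 fell and 7 rose (median -0.02), where 25.4% of all genes fell and 33.6% rose. MKI67, the Ki-67 proliferation marker, fell by 0.75 at 8 nM (SE 0.15, limma adjusted p = 0.016), NUSAP1, a spindle protein, by 0.73 (adjusted p = 0.0011) and BIRC5, which encodes survivin, by 0.54 (adjusted p = 0.021). At 80 nM CDK1, the mitotic kinase, rose by 1.13, from 2.97, 3.08 and 3.02 untreated to 4.18, 4.11 and 4.18, and KIF11, a spindle motor, rose by 0.71, which did not pass with spike-in scaling. The MKI67 probes disagreed, with -0.75, -0.57 and -0.24 at 8 nM and -0.81, -0.21 and 0.76 at 80 nM. Between the concentrations 18 of the 29 were higher and 1 lower at 80 nM (median 0.21), where 34.9% of all genes were higher. The 18 became 10 without the first or the third 80 nM array, 11 without the first and 12 without the third 8 nM array, and 2 with spike-in scaling. With spike-in scaling 0 passed at 8 nM, and 1 rose and 7 fell at 80 nM. With the untreated and 8 nM arrays alone in the fit 4 fell at 8 nM, and 8 fell with no filter on dim probes. At 8 nM 10, 5 or 9 fell without the first, the second or the third untreated array. The number was 10, 21 or 8 without the first, the second or the third 8 nM array. It was 11 with the replicate number as a block. By the study's fold rule 2 of the 29 were lower at 8 nM, where 2.84% of all genes were.

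**Figure D5:**
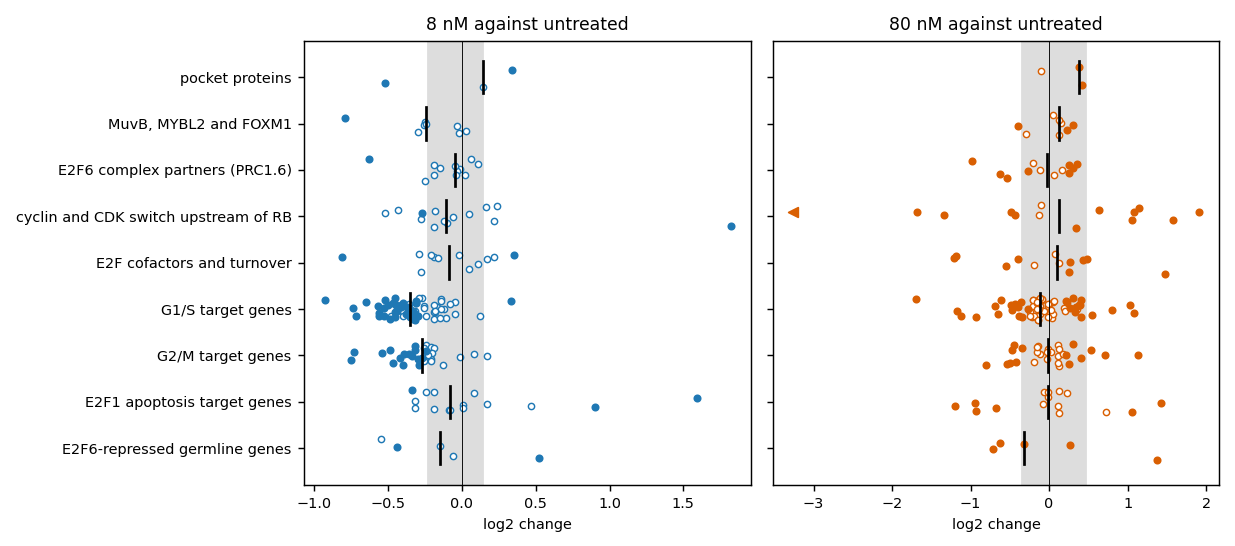
Log2 change against untreated of the tested genes of each E2F-related list at 8 nM (left) and 80 nM (right, on a wider axis); filled points passed limma's adjusted p under 0.05, black bars are list medians, the grey band spans the quartiles of all genes tested, and the triangle is CDK6, drawn at its bound. The medians of the G1/S and G2/M lists are -0.35 and -0.27 at 8 nM and -0.12 and -0.02 at 80 nM.

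The E2F6 complex partners, 12 genes of the PRC1.6 Polycomb complex and its histone methyltransferases, gave 1 decrease and 0 increases at 8 nM, and 4 of each at 80 nM. Of all genes, 13.6% passed at 8 nM and 59% at 80 nM, so the 80 nM count is near the background. EHMT1, a histone H3 lysine methyltransferase, fell by 0.63 at 8 nM and 0.98 at 80 nM, and its groups were separate (0.70, 0.89 and 0.88 untreated, 0.12, 0.28 and 0.19 at 8 nM, -0.18, -0.15 and -0.13 at 80 nM). MGA, the scaffold that holds E2F6 in the complex, fell by 0.63 at 80 nM and YAF2 by 0.54, and EHMT2 was higher at 80 than at 8 nM by 0.35, or -0.01 with spike-in scaling. Of the germline genes that E2F6 is known to silence, 11 of 12 were found on the array and 5 passed the filter on dim probes, so the other 7 have no test. Of those 5, TDRKH, a piRNA pathway gene, rose by 0.52 and TUBA3C, a testis tubulin gene, fell by 0.44 at 8 nM. At 80 nM TUBA3C rose by 1.37 and TDRKH fell by 0.32, while STAG3, a meiotic cohesin subunit, fell by 0.63 by one probe and changed by 0.21 by another. TUBA3C and its near-identical copy TUBA3D (-0.71 at 80 nM) can share signal, so both values are uncertain.

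Among 12 cofactors and turnover factors of E2F proteins, 1 rose and 1 fell at 8 nM (13.6% of all genes passed). At 80 nM 5 rose and 4 fell (59% of all genes passed). SKP2, the ubiquitin ligase subunit that targets E2F1, fell by 0.81 at 8 nM (SE 0.12, limma adjusted p = 0.0051), from 0.52, 0.61 and 0.56 to -0.17, -0.55 and -0.02. KAT2B, an acetyltransferase of E2F1, rose by 0.35 at 8 nM (adjusted p = 0.067 in the fit blocked on replicate number) and by 1.47 at 80 nM, and at 80 nM CREBBP, another acetyltransferase, fell by 1.18 on the log2 scale and FZR1, an activator of the anaphase-promoting complex, fell by 1.21.
Of 15 apoptosis genes known as E2F1 targets, 2 rose and 1 fell at 8 nM (13.6% of all genes passed). At 80 nM 2 rose and 4 fell (59% of all genes passed). TP53INP1 (1.59) and BBC3 (0.90), which are also targets of p53, rose at 8 nM, and SIVA1 fell by 0.34 (adjusted p = 0.068 in the fit blocked on replicate number). BBC3 was 2.57, 2.71 and 2.57 untreated, 3.53, 3.64 and 3.38 at 8 nM and 2.55, 2.56 and 2.51 at 80 nM, so it was high at 8 nM alone. Another TP53INP1 probe gave 0.94 at 8 nM and 0.48 at 80 nM. At 80 nM TP53INP1 rose by 1.06 and PMAIP1 fell by 1.20 (SE 0.31), while the probes of BCL2L11 gave 1.42, -1.47 and -0.24. PMAIP1 was spread widely on the untreated arrays, with -2.88, -3.95 and -3.8, and was -4.75, -4.65 and -4.81 at 80 nM. With spike-in scaling, CDKN1A, TP53INP1 and BBC3 were the named genes of all these lists that passed at 8 nM.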

How the data were processed

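RNA of 9 A2780 cultures was labeled with Cy3 and hybridized to 1-colour Agilent arrays of 62976 spots. The authors extracted the deposited intensity with Feature Extraction 10.7.3.1 (named in the submitters' processing notes), which corrects each spot for background but does not scale arrays. The authors also deposited log2 values per probe, which tracked the median spot signal, had medians between 6.889 and 6.901 on every array and are not centred; as all arrays have 1 colour, they carry no ratio and no direction, and they served as an alternative.

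From the log2 of each intensity, that of the array's 75th percentile over gene spots (826 to 1170) was subtracted. Outlier spots were left out, 2 of them on member probes, and no gene spot was saturated (0 on all arrays). A probe was kept if some group had it well above background on each of its 3 arrays (26457 probes), and the brightest kept probe stood for a gene. A RefSeq table gave symbols to 25715 of 27245 probes that carry RefSeq accessions. Comparisons used lmFit, contrasts and eBayes of limma 3.58.1 in R 4.3.3, with Benjamini-Hochberg adjustment, and the procedure was tested on simulated data. There it recovered most changes of 1 log2 unit but a minority of those of 0.5, so a gene that did not pass may have changed by that much, and the recovery asked for was lowered after this had been seen. The number of arrays limits the precision.

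Named were all 10 members with every probe, the pocket protein and MuvB lists, in each other list and comparison up to 3 called genes with the largest changes that were above background in both groups, not all of which are given, and the 5 genes closest to E2F1 and TFDP1. The members, lists and tests were chosen with earlier results of these data known. Alternatives were normexp (offset 50, on the median spot signal), quantile normalization, spike-in scaling, the authors' log2 values, other filters, the mean of a gene's probes, only the groups compared, the replicate number as a block, the study's fold rule and each array left out. Same-numbered untreated and 8 nM arrays deviated together (r from 0.101 to 0.163 over 3 pairs, against -0.124 to -0.003 over 6 pairs of different numbers). Deviations were taken from the mean of each group, so higher r in the former forces lower r in the latter. The numbers may thus pair these arrays, on the values alone. The main fit did not use this pairing, and values from the blocked fit are named as such. The 80 nM arrays did not pair.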

Additional observations from a re-analysis of the deposited data

How the results depend on the processing

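At 8 nM, 5 members passed, and the number was 0 with spike-in scaling, 3 with only the groups compared in the fit and 2 by the study's fold rule. It was 4 or 5 under the other settings, and from 4 to 5 when each array was left out in turn. At 80 nM, 7 members passed, with 3 by the fold rule, from 5 to 8 under the other settings, and from 5 to 7 with 1 array left out. Between 80 and 8 nM, 5 members passed, with 2 under spike-in scaling, 3 with no filter on dim probes, 3 with the mean of the probes of a gene, 3 with only the groups compared and 3 by the fold rule. With 1 array left out the number was from 3 to 5, and it was 3 without the first 80 nM array. No member that passed changed sign under any of these settings.

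Some other named genes turned direction. Under spike-in scaling the change of MYBL2 at 80 nM was -0.05, and the differences between 80 and 8 nM were -0.01 for EHMT2, -0.08 for RB1 and -0.01 for UHRF1, none of which passed. With the mean of the probes of a gene, BCL2L11 changed by -0.10 at 80 nM and -0.03 between the concentrations, and neither passed. DBF4 (0.33, limma adjusted p = 0.018) and MKI67 (0.43, adjusted p = 0.012) then passed as higher at 80 than at 8 nM. By their brightest probes DBF4 was lower there (-0.45) and MKI67 (-0.06) did not pass. The cause was not tested, beyond the shift that a scaling gives all genes and the probes that disagree. Of the list counts under the alternatives, 400 stayed within 1.5 times their value, 102 were smaller and 11 larger.

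The replicate number as a block left 5 members passing at 8 nM, 6 at 80 nM and 4 between the concentrations, and E2F3 was the member that no longer passed in both latter comparisons. It moved the number of genes called from 2968 to 2283, from 12881 to 12433 and from 12597 to 12165. At 8 nM, where same-numbered arrays deviated together, the block also ended the calls of CDK1 (-0.29, adjusted p = 0.056), CDKN2C, KAT2B and SIVA1, and no other call of a named gene there. The 80 nM arrays shared only a number with the others (r from -0.082 to -0.003 with untreated and from -0.124 to 0.016 with 8 nM, over 3 pairs each).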
